A study of Mus musculus with 9 samples.

Results

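The 8 genes described here encode complement receptors and regulators (Cr2, Cr1l and Cd55) and Fc receptors and their relatives (Fcer2a, Fcgr2b, Fcrl1, Fcrl5 and Fcrla) of mouse B cells. They were taken by symbol from a table of 22178 genes, and all 8 were found and passed the filter on low values that left 11099 genes for testing. The 9 RNA-seq libraries fall into 3 groups of 3. B2 cells came from the spleen under the strain label VH12B1-8/Vk4. B1 and B2B1 cells came from the peritoneal cavity under the strain label B1-8VH12/Vk4, and the B2B1 cells had been made to exchange their antigen receptor (the B cell receptor, BCR) some 30 days before they were isolated. All groups carry the background label C57BL/6 (backcrossed). B2 cells are the conventional, recirculating B cells, and B1 cells are the B cell class of the body cavities. The labels do not say how the BCR exchange was triggered, how cells were sorted or whether each library had its own mouse. The p-values therefore reflect the scatter among these libraries, which may be technical. Spleen against peritoneal cavity and the strain label change together with the cell type in both comparisons with B2, so their parts cannot be told apart there. The 2 peritoneal groups share tissue and strain label but were unbalanced in Xist. It was high in every B1 library and low in B2B1 libraries 1 and 2, so Xist partly changes with the group there.

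Complement receptors on B cells bind C3 fragments fixed on antigen and join them to a signalling complex in the membrane, which lowers the amount of antigen needed to trigger the BCR. Membrane regulators such as those encoded by Cr1l and Cd55 stop C3 convertases from forming on the cell's own surface. Fc receptors read antibody that is already bound to antigen, and the one encoded by Fcgr2b carries an inhibitory motif that dampens BCR signals. High surface CD21 and CD23, the products of Cr2 and Fcer2a, are classical marks of splenic B2 cells, and both are low on peritoneal B1 cells. The genes and groups were chosen with earlier results of these data known.

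The values were TPM, a unit that corrects for transcript length and library size, so levels can be compared between genes. TPM keep no read counts, and the depth is unknown. The listed genes summed to 894515 to 943043 TPM per library. Of the B cell markers, Cd79a and Cd79b passed in no comparison, at group means of 2800 to 2856 and 2855 to 3286 TPM. Ms4a1 was higher in B1 than in B2 (2176 ± 185 against 1568 ± 80.6 TPM, SD, n = 3, limma adjusted p = 0.0249) and did not pass in B2B1. Pax5, Cd22 and Cd74 were called lower in both peritoneal groups, with means in B2, B2B1 and B1 of 395, 187 and 243 TPM for Pax5, 681, 358 and 329 TPM for Cd22, and 16383, 11633 and 11907 TPM for Cd74. Markers of T cells summed to 4.73 to 19.8 TPM and those of NK cells to at most 0.775 TPM. Neutrophil markers summed to at most 5.22 TPM, and those of mast cells, basophils and eosinophils to at most 4.87 TPM. Dendritic cell markers summed to 19.2 to 21.1 TPM in B2 (mostly Flt3) and to at most 2.79 TPM elsewhere, and erythroid and platelet markers to at most 10.5 TPM. Macrophage markers (10 genes) summed to 1.49 to 2.80 TPM in B2, 21.2 to 46.1 in B1 and 63.8 to 241.9 in B2B1, highest in B2B1 library 1. Follicular dendritic cells also carry Cr2, Fcer2a and Fcgr2b. Their marker Madcam1 was listed at 0 in all 9 libraries, and Cxcl13 stood at 0 throughout B2. The 7 markers summed to at most 8.48 TPM in B2 and 3.76 in B1, and reached 16.7 TPM in B2B1 library 1, where Cxcl13 was at 10.4. The B2 sum was mostly Mfge8, at 7.57 ± 0.457 TPM against 1.69 ± 0.563 in B2B1 and 1.75 ± 0.622 in B1. Mfge8 was called lower in both (log2 fold changes −1.69 and −1.66, limma adjusted p = 0.000106 and 0.000172). By mean, Clu and Enpp2 were also highest in B2, and Prnp and Ltbr lowest there, all under 1 TPM in B2. The part of follicular dendritic cell RNA was not tested. Xist was low in B2 library 2 and B2B1 libraries 1 and 2 and high in the other libraries. B1 library 2 stood apart on the third principal component, and 8 mitosis genes averaged 3.29 there on the log2(TPM + 1) scale against 1.82 and 1.93 in B1 libraries 1 and 3.

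**Figure D1:**
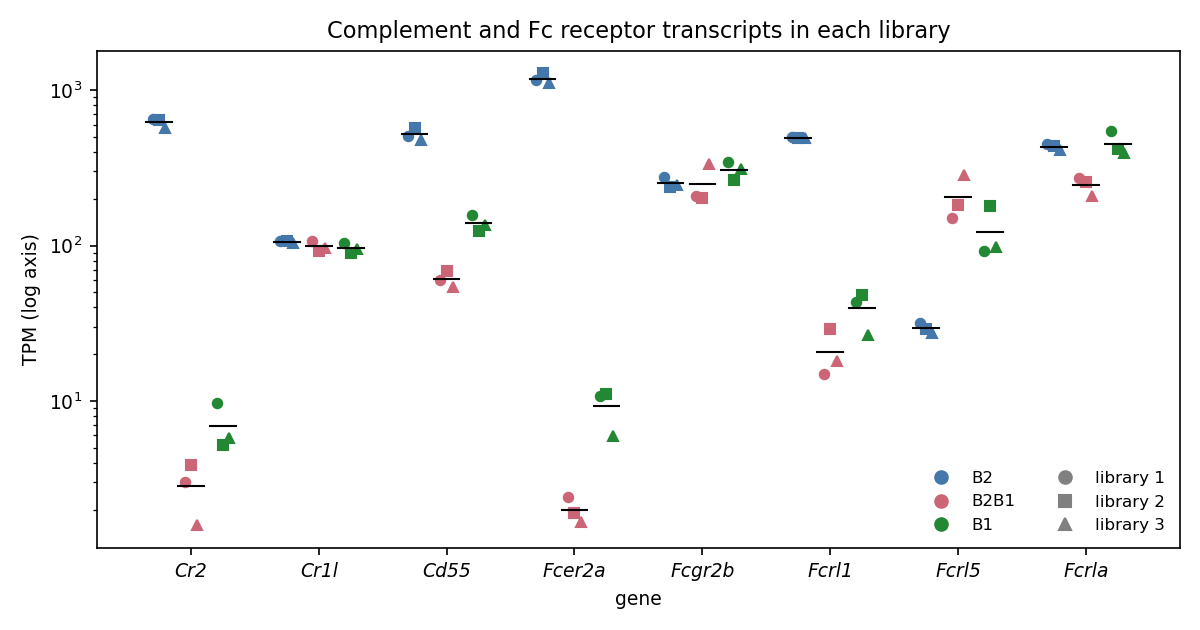
Each point is the TPM of a gene in 1 library on a log axis. Colours give the group, shapes the library number and black bars the group mean. Cr2, Fcer2a, Cd55 and Fcrl1 stand highest in B2, Fcrl5 lowest in B2, and Cr1l lies between 89.9 and 107 TPM in all 9 libraries.

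Together the 8 genes made up 3639 ± 186 TPM of a B2 library (mean ± SD, n = 3 here and below), 1171 ± 122 TPM of a B1 library and 885 ± 98.6 TPM of a B2B1 library. In B2 the sum was led by Fcer2a (32.6%), Cr2 (17.0%), Cd55 (14.2%) and Fcrl1 (13.5%). In B1 it was led by Fcrla (38.4%) and Fcgr2b (26.2%), and in B2B1 by Fcrla (28.3%), Fcgr2b (27.6%) and Fcrl5 (22.9%). Fcer2a and Cr2 each held under 1% of the sum in both peritoneal groups, at 0.783% and 0.579% in B1 and 0.229% and 0.33% in B2B1.

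The question of the B1 and B2 comparison was how the transcripts of peritoneal B1 cells differ from those of splenic B2 cells, and limma called 4 of the 8 genes lower and 1 higher in B1. Over all tested genes 33.9% were called lower and 18.0% higher. The comparisons of B2B1 ask how cells with an exchanged receptor stand to each of the other groups. Between B2B1 and B2, 5 of the 8 were lower and 1 was higher, against 42.0% and 21.0% of all tested genes. Between the peritoneal groups, 5 of the 8 were lower and 0 were higher in B2B1 than in B1, against 12.1% and 6.93% of all genes. At an unadjusted p under 0.05 in limma, 1 of the 8 (Fcrl5) was higher in that comparison. The median log2 fold change of the 8 genes was −1.02, −1.95 and −0.89 in these 3 comparisons, beside −0.14, −0.19 and −0.06 over all tested genes. The comparisons share libraries, so they are not independent of each other.

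**Figure D2:**
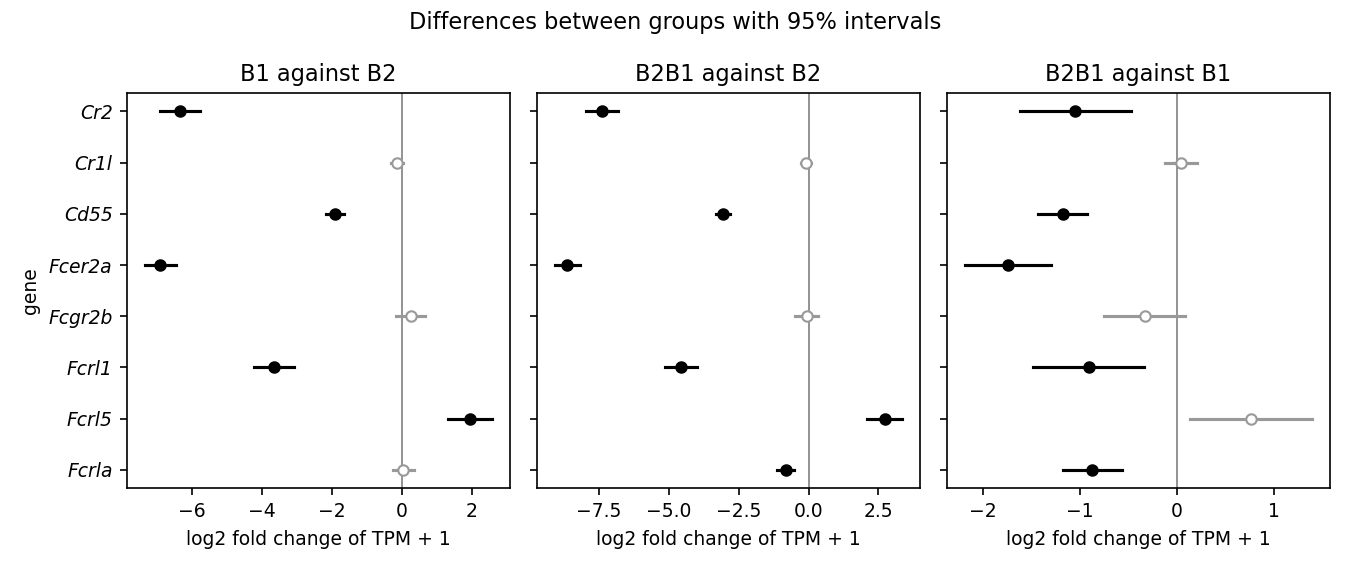
Log2 fold changes of TPM + 1 for the 8 genes in the 3 comparisons, with 95% intervals from the limma fit. Filled black points passed the test and open grey points did not, and the horizontal scale differs between panels. Fcer2a and Cr2 lie farthest to the left in both comparisons with B2, and Fcrl5 alone lies to the right past the threshold there.

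Cr2, which in mice encodes both complement receptors 1 and 2 (CD35 and CD21) by alternative splicing, was far lower in both peritoneal groups than in B2. It was at 654, 638 and 569 TPM in the B2 libraries, at 9.68, 5.18 and 5.77 TPM in B1 and at 3.01, 3.89 and 1.58 TPM in B2B1. The 3 groups did not overlap. In such bulk libraries fewer cells carrying a transcript and less of it per cell cannot be told apart. The mean was 90.2-fold lower in B1 than in B2 (log2 fold change −6.34 ± 0.25, SE, limma adjusted p = 1.94e-07) and 219-fold lower in B2B1 (−7.39 ± 0.25, limma adjusted p = 7.72e-08). Among the 11099 tested genes only 3 had a lower fold change in B1 against B2 and 2 in B2B1 against B2. Within the peritoneum Cr2 was 2.43-fold lower in B2B1 than in B1 (log2 fold change −1.05 ± 0.25, limma adjusted p = 0.0221). That call ended without B1 library 1, the highest of its group (−0.81, limma adjusted p = 0.0617), with no filter on low values (adjusted p = 0.0883) and in a fit of the 2 peritoneal groups alone (adjusted p = 0.076). The adjusted p ranged from 0.0136 to 0.0883 over the 22 alternatives. The gene-level table does not separate the CD35 and CD21 transcripts.

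Cr1l, which encodes Crry, the complement regulator of rodent cell membranes, lies next to Cr2 and passed the test in no comparison. It was at 107, 107 and 103 TPM in B2, at 107, 92.9 and 97.1 TPM in B2B1 and at 104, 89.9 and 94.5 TPM in B1. All groups overlapped. The log2 fold change was −0.14 in B1 against B2 (95% interval −0.31 to 0.03, limma adjusted p = 0.15), −0.10 in B2B1 against B2 (−0.26 to 0.07, adjusted p = 0.285) and 0.04 in B2B1 against B1 (−0.13 to 0.21, adjusted p = 0.731). These intervals hold no change larger than 0.31 on the log2 scale. Their signs turned with median-of-ratios scaling against B2 (0.0071 and 0.11), which moved the median of all tested genes from −0.14 and −0.19 to −0.000687 and −0.00312. Relative to the unscaled median Cr1l changed by −0.0022 in B1 against B2. Cr2 stood 5.52 to 6.10-fold above Cr1l in the B2 libraries, and Cr1l stood 10.8 to 17.4-fold above Cr2 in B1 and 23.9 to 61.3-fold above it in B2B1. Such ratios within a library do not depend on how libraries are scaled. Of the stretches of 31 bases in the Cr1l transcripts, 7.38% also occur in other genes, and 6.08% in Crry-ps. How far Cr1l shares reads with these genes was not tested.

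In the mouse build GRCm38 (GENCODE M21), Cr2 occupies chromosome 1 from 195136811 to 195176716 and Cr1l from 195097382 to 195131586, both on the minus strand with 5.2 kb between them. On the other side of Cr1l, 5.1 kb away, lies Cd46, a further membrane regulator, at 3.27 ± 0.712 TPM in B2, 1.71 ± 0.433 in B2B1 and 2.57 ± 0.237 in B1. Cd46 was lower in B2B1 than in B2 (a log2 fold change of −0.65, limma adjusted p = 0.00774) and did not pass in B1 against B2 (adjusted p = 0.244). The 250 bases before the RefSeq start sites of the neighbours Cr2 and Cr1l are shown because Cr2 was lower in both peritoneal groups and Cr1l passed in no comparison. Both come from the RefSeq promoter table on GRCm38.p6, read 5′ to 3′ along the minus strand, at chr1:195176720-195176969 for Cr2 and chr1:195131571-195131820 for Cr1l, and capitals mark matches to 6 motifs searched on both strands.
Cr2: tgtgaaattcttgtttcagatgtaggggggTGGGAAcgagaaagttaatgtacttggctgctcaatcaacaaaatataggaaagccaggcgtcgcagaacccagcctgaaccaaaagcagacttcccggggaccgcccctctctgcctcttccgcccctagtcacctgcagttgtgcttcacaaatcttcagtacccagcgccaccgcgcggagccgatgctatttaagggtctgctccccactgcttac
Cr1l: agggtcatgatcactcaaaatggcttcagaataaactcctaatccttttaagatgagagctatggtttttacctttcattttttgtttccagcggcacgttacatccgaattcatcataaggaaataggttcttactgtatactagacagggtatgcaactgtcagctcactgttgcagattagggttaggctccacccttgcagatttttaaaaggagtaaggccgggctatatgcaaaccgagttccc

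The motifs were the RBPJ core TGGGAA, through which Notch receptors act, the E-box CAGCTG, the octamer ATGCAAAT, the palindrome of early B cell factor (EBF), TCCC and GGGA with 2 bases between, the STAT6 element, TTC and GAA with 4 bases between, and the TATA box TATAAA, which was added after the sequences had been seen. No motif overlapped another in these windows. The single RBPJ core among the 8 windows began 220 bases before the Cr2 start, and 21.6% of all 32851 promoter windows of this length held one. TATA box letters stood in 3 of the 8 windows and in 12.4% of all. No E-box, octamer, EBF or STAT6 letters were found in the 8 windows, beside 13.0%, 1.60%, 0.78% and 5.85% of all windows. A match describes letters and is not a binding site.

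Cd55, the decay-accelerating factor that dismantles C3 convertases, fell in both peritoneal groups and further in B2B1. It was at 507, 570 and 479 TPM in B2, at 158, 125 and 135 TPM in B1 and at 60.2, 68.1 and 54.3 TPM in B2B1, with no overlap between any of the groups. The log2 fold change was −1.89 ± 0.11 in B1 against B2 (limma adjusted p = 1.97e-06), −3.07 ± 0.11 in B2B1 against B2 (1.04e-07) and −1.18 ± 0.11 in B2B1 against B1 (0.000288). Cd55 stood above Cr1l by 4.65 to 5.33-fold in B2 and by 1.39 to 1.51-fold in B1, and below it in B2B1, at ratios of 0.56 to 0.733.

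Cd55 lies on chromosome 1 from 130439027 to 130462744, and its near copy Cd55b, listed as Daf2, lies 16.0 kb away. Daf2 was at 38.9 ± 5.45 TPM in B2, 10.2 ± 0.126 in B1 and 4.07 ± 0.164 in B2B1, with log2 fold changes of −1.82 ± 0.11, −2.97 ± 0.11 and −1.15 ± 0.11 in the same 3 comparisons (limma adjusted p = 1.68e-06, 8.98e-08 and 0.00025). Of the stretches of 31 bases in the Cd55 transcripts, 11.2% also occur in Cd55b, so part of the reads could be split between the copies, and how far they share reads was not tested. An antisense gene, Gm16083, overlaps Cd55, and the counting is not stated to use strand.

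Fcer2a, which encodes the low-affinity IgE receptor CD23, had the lowest fold change of all 11099 tested genes in both comparisons with B2. It was at 1165, 1283 and 1112 TPM in B2, at 10.7, 11.1 and 5.96 TPM in B1 and at 2.40, 1.91 and 1.66 TPM in B2B1, again without overlap between groups. The mean was 128-fold lower in B1 than in B2 (a log2 fold change of −6.90 ± 0.20, limma adjusted p = 2.87e-08) and 596-fold lower in B2B1 (−8.64 ± 0.20, adjusted p = 6.56e-09). Between the peritoneal groups it was 4.64-fold lower in B2B1 (−1.74 ± 0.20, limma adjusted p = 0.000683). In B2 its mean stood above 99.0% of the tested genes, in B1 above 28.7% and in B2B1 above 9.45%. Fcer2a also appears in the submitters' deposited signature of 28 genes, possibly chosen on these libraries, so its place there is no independent evidence.

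Fcer2a lies on chromosome 8 from 3681737 to 3694175 on the minus strand. Its nearest tested neighbour, Trappc5, 0.5 kb away, was also lower in B1 and B2B1, by less (log2 fold changes −1.21 ± 0.07 and −1.34 ± 0.07, limma adjusted p = 2.08e-06 and 8.94e-07). The 250 bases before the most upstream of its 3 RefSeq start sites, at chr8:3694175-3694424, are printed because this gene fell the most. The capitals mark the TATA box letters that begin 33 bases before the start.
Fcer2a: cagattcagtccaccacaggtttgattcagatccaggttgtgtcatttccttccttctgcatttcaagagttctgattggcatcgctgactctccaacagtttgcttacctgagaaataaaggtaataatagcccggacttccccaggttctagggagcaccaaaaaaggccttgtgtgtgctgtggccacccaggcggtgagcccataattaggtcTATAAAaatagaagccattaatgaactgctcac

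Of the genes that act on CD23 after it is made, Adam10, the protease that sheds CD23 from the cell surface, was at 62.1 ± 2.67 TPM in B2, 77.1 ± 2.0 in B2B1 and 87.7 ± 10.9 in B1, higher than B2 in both (log2 fold changes 0.31 and 0.49, limma adjusted p = 0.0114 and 0.00135). Tspan15, a tetraspanin partner of ADAM10, was at 12.1 ± 2.72 TPM in B2 against 1.47 ± 0.144 in B2B1 and 1.72 ± 0.063 in B1 (log2 fold changes −2.38 and −2.24, limma adjusted p = 2.61e-06 and 4.80e-06). Adam15 was lower in B2B1, at 3.25 ± 0.2 TPM, than in B2, at 5.49 ± 0.999 TPM (log2 fold change −0.60, limma adjusted p = 0.00481). Of the 4 tested genes of this list, 1 was higher and 1 lower in B1 against B2, 1 higher and 2 lower in B2B1 against B2, and limma called 0 between the peritoneal groups, where 1 was lower at an unadjusted p under 0.05. With 4 genes these counts cannot be set apart from the shares over all tested genes given above. The list median was 0.08, −0.28 and −0.26.

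Fcgr2b, which encodes FcγRIIB, the inhibitory receptor for IgG on B cells, passed the test in no comparison. It was at 278, 239 and 244 TPM in B2, at 207, 202 and 334 TPM in B2B1 and at 346, 263 and 309 TPM in B1. All groups overlapped, and B2B1 library 3, the only one of its group with high Xist, stood above the other two. The log2 fold change was 0.26 in B1 against B2 (95% interval −0.16 to 0.68, limma adjusted p = 0.26), −0.07 in B2B1 against B2 (−0.49 to 0.35, adjusted p = 0.757) and −0.33 in B2B1 against B1 (−0.75 to 0.08, adjusted p = 0.24). Without B2B1 library 3 the last difference passed (−0.57, limma adjusted p = 0.0174). With Xist as a covariate it was −0.06 (limma adjusted p = 0.868, the highest of the alternatives). The intervals are wide enough to hold differences of 0.75 on the log2 scale.

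Fcgr2b lies on chromosome 1 from 170958617 to 170976547, and its nearest tested neighbours are Fcrla and Fcgr4. It shares 4.15% of its 31-base stretches with Fcgr3, whose highest value in any library was 3.12 TPM. An antisense gene, Gm38204, overlaps it. Macrophages also carry Fcgr2b, and the macrophage marker sum was highest in B2B1 library 1 (241.9 TPM), where Fcgr2b was at 207 TPM. The sum was 63.8 TPM in library 2, with Fcgr2b at 202, and 87.5 TPM in library 3, with Fcgr2b at 334, and the part of macrophage RNA was not tested.

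In B2 libraries Fcer2a exceeded Fcgr2b 4.19 to 5.37-fold. In B1 Fcgr2b exceeded Fcer2a 23.8 to 51.8-fold, and in B2B1 86.4 to 201.5-fold. The more abundant transcript of the pair was the IgE receptor in all 3 spleen libraries and the IgG receptor in all 6 peritoneal libraries.

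**Figure D3:**
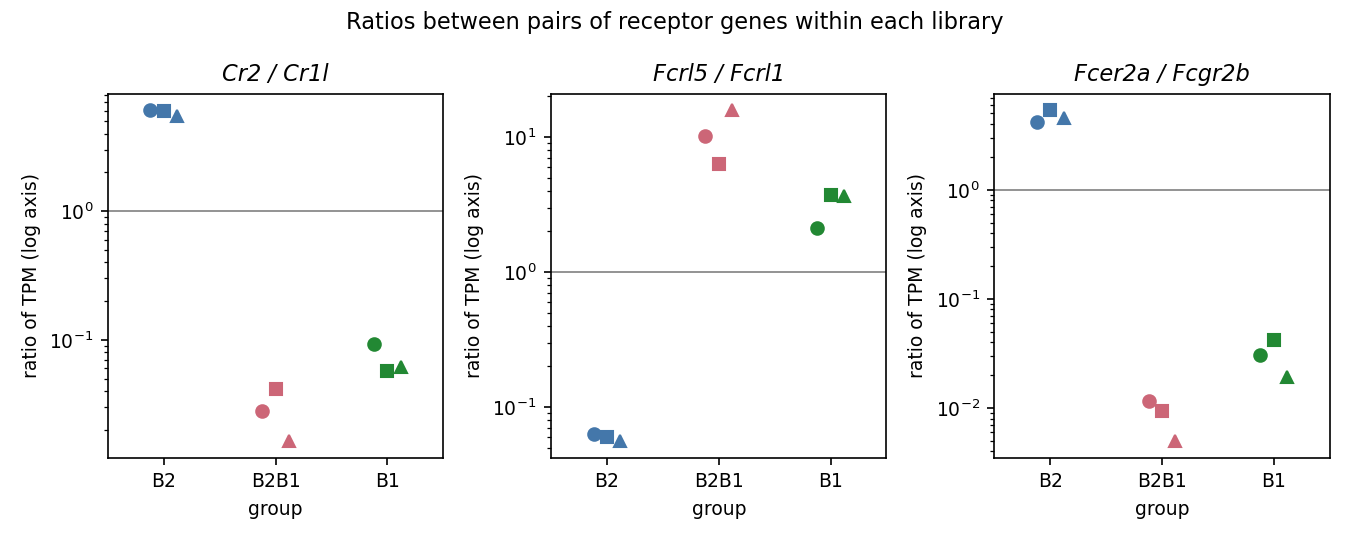
Ratios of TPM between pairs of genes in each library on a log axis, with the grey line at 1. Colours and shapes are those of the plot of the 8 genes by library (B2 blue, B2B1 red, B1 green, with circles, squares and triangles for libraries 1, 2 and 3). The 3 pairs, Cr2 to Cr1l, Fcrl5 to Fcrl1 and Fcer2a to Fcgr2b, were chosen with their values known, and each crosses 1 between the B2 and the peritoneal libraries. The ratio of Cd55 to Cr1l, not drawn, stays above 1 in B1.

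Fcrl1 and Fcrl5, members of the Fc receptor-like family on B cells, moved in opposite directions. Fcrl1, whose product promotes B cell activation, was at 498, 490 and 489 TPM in B2, at 43.3, 48.1 and 26.6 TPM in B1 and at 14.9, 28.9 and 18.0 TPM in B2B1. Both peritoneal groups lay under B2 without overlap, and overlapped each other. The log2 fold change was −3.65 ± 0.25 in B1 against B2 (limma adjusted p = 5.23e-06) and −4.57 ± 0.25 in B2B1 against B2 (adjusted p = 1.11e-06). The spread within B2 was small, 1.0% of the mean, beside 28.6% in B1 and 35.8% in B2B1.

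Fcrl1 was called lower in B2B1 than in B1 (log2 fold change −0.91 ± 0.25, limma adjusted p = 0.0372), yet that call was lost in 12 of 22 alternatives. It ended on leaving out any of the 3 B2 libraries (adjusted p = 0.0586 to 0.0601, with the same fold change), B2B1 library 1 (−0.72, adjusted p = 0.107) or library 3 (−0.85, 0.095), or B1 library 1 (−0.82, 0.108) or library 2 (−0.75, 0.0855). The call also ended with no filter on low values (limma adjusted p = 0.131) and in a fit of the 2 peritoneal groups alone (0.103). Library weights (0.051) and Xist as a covariate (0.118) removed it too. The adjusted p ranged from 0.0117 to 0.175.

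Fcrl5, whose product carries both activating and inhibitory motifs and is known from marginal zone and B1 cells, was the only one of the 8 genes called higher in the peritoneum. It was at 31.6, 29.1 and 27.2 TPM in B2, at 91.7, 178.5 and 97.5 TPM in B1 and at 151, 183 and 285 TPM in B2B1. Both peritoneal groups lay above B2 without overlap and overlapped each other. The log2 fold change was 1.96 ± 0.28 in B1 against B2 (limma adjusted p = 0.000403) and 2.72 ± 0.28 in B2B1 against B2 (adjusted p = 3.84e-05). B2B1 against B1 did not pass (0.76, 95% interval 0.13 to 1.39, adjusted p = 0.0901), but did without B1 library 2 (1.06, adjusted p = 0.0144). That library, with the high mitosis genes, held the highest Fcrl5 value of its group. In B2B1, Fcrl5 was highest in library 3, where the mitosis genes averaged 2.69 on the log2 scale, and lowest in library 1, where they averaged 3.70. The part of dividing cells in these values was not tested.

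The genes lie 32.8 kb apart on the plus strand of chromosome 3, Fcrl1 from 87376387 to 87402934 and Fcrl5 from 87435773 to 87500678. Neither shares more than 0.06% of its 31-base stretches with another gene. Per library, Fcrl1 exceeded Fcrl5 15.7 to 18.0-fold in B2, and Fcrl5 exceeded Fcrl1 2.12 to 3.71-fold in B1 and 6.34 to 15.8-fold in B2B1. Their outer neighbours were Cd5l, 5.3 kb before Fcrl1, and Etv3, 24.7 kb after Fcrl5. Cd5l was low, at 2.20 ± 0.333 TPM in B2, 2.16 ± 1.89 in B2B1 and 0.346 ± 0.282 in B1. It was lower in B1 than in B2 (a log2 fold change of −1.27, limma adjusted p = 0.0169) and did not pass in B2B1 against B2 (−0.18, adjusted p = 0.687). Etv3 was lower than in B2 in both B1 and B2B1 (−0.74 and −0.58, limma adjusted p = 0.000194 and 0.000559). The sequences before the RefSeq starts of Fcrl1 and Fcrl5, at chr3:87376137-87376386 and chr3:87435532-87435781, are given because these neighbours changed in opposite directions. Capitals mark TATA box letters, which here lie 193 and 171 bases before the starts and, for Fcrl5, on the opposite strand.
Fcrl1: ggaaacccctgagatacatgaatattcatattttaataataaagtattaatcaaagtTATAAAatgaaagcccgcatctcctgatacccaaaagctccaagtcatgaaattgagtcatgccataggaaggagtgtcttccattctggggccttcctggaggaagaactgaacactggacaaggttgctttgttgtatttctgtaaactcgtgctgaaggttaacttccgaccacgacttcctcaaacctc
Fcrl5: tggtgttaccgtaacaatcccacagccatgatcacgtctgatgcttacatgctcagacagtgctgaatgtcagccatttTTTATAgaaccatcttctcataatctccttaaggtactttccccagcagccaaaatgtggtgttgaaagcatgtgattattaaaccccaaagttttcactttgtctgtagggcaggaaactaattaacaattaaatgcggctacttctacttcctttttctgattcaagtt

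Fcrla, an Fc receptor-like protein that stays inside the B cell and binds immunoglobulin there, parted the peritoneal groups. It was at 448, 439 and 410 TPM in B2, at 543, 416 and 397 TPM in B1 and at 272, 258 and 207 TPM in B2B1. The B1 and B2 values overlapped, and B2B1 lay under both. The log2 fold change was 0.05 in B1 against B2 (95% interval −0.25 to 0.35, limma adjusted p = 0.775), −0.82 ± 0.13 in B2B1 against B2 (adjusted p = 0.000594) and −0.87 ± 0.13 in B2B1 against B1 (adjusted p = 0.00289). Both calls of B2B1 held in all 22 alternatives, with log2 fold changes of −0.90 to −0.62 and −1.001 to −0.73. The B1 against B2 difference turned to −0.09 without B1 library 1, the highest value of its group. Fcrla lies on chromosome 1 from 170917576 to 170927583. Its neighbour Fcrlb, 4.6 kb away and also intracellular, went the other way in B2B1 at a low level, 2.07 ± 0.363 TPM against 1.01 ± 0.292 in B2 and 1.01 ± 0.270 in B1 (log2 fold changes 0.61 and 0.61, limma adjusted p = 0.0127 and 0.0399).

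By level, B2 stood above B1 and B1 above B2B1 for Fcer2a and Cd55, with every step past the threshold. The same order held for Cr2 and Fcrl1, whose lower step (B1 to B2B1) was lost under alternatives given above. For Fcrl5 both peritoneal groups stood above B2 and did not differ from each other beyond the threshold. For Fcrla B2 and B1 were not told apart and B2B1 was lowest, and for Cr1l and Fcgr2b no step passed.

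Likeness was measured as the root mean square distance between log2(TPM + 1) profiles over the 9 libraries, each centred on its own mean, among 8542 other genes with a mean of at least 5 TPM. For Cr2 and Fcer2a the nearest gene was Icosl, at distances of 0.337 and 0.407, where the profiles themselves spread by 3.28 and 3.74. Icosl, the ligand of ICOS on T cells, averaged 427 ± 5.38 TPM in B2, 3.42 ± 1.43 in B1 and 0.776 ± 0.281 in B2B1. The next were Fam101b and Emid1 for Cr2 (0.781 and 0.784) and Vpreb3 and Lmo2 for Fcer2a (0.825 and 1.19). Cd55 lay nearest to Kcng1 (0.115), Daf2 (0.124) and Lpar6 (0.171), and Fcrl1 to Pglyrp2 (0.232), Gpr171 (0.33) and Cpm (0.363). Fcrl5 lay nearest to Ccdc28b (0.149), at 17.6 ± 0.748 TPM in B2, 149 ± 32.4 in B2B1 and 83.8 ± 32.9 in B1, then to Ptms (0.343) and the cell cycle kinase gene Wee1 (0.346). Fcrla lay nearest to Arhgap9 (0.133), Adcy7 (0.144) and Pear1 (0.145). For Cr1l (Ccny, Jkamp and Pdha1, 0.0405 to 0.0484) and Fcgr2b (Cyth4, Tbc1d5 and Kat2b, 0.136 to 0.156) the profiles spread by only 0.0928 and 0.263.

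Among the other Fc receptor genes 14 were listed and 8 tested. In B1 against B2, 3 were higher and 2 lower, in B2B1 against B2, 6 were higher and 1 lower, and in B2B1 against B1, 4 were higher and 1 lower, with list medians of −0.06, 0.98 and 0.48. At an unadjusted p under 0.05, 6 were higher and 1 lower in B2B1 against B1. Over all tested genes 18.0% were higher and 33.9% lower in the first comparison, 21.0% and 42.0% in the second and 6.93% and 12.1% in the third. The 2 of 8 lower in B1 against B2 and the 1 of 8 lower in B2B1 against B1 are near these shares. Pigr, 1 of the 8, averaged under 1 TPM in B2 and passed the filter through the peritoneal groups, yet is among those counted higher against B2. The counts cover only the 8 tested of 14 listed genes. Fcgrt, the neonatal Fc receptor chain that protects IgG from breakdown, fell from 40.1 ± 4.25 TPM in B2 to 13.9 ± 3.31 in B1 and 2.90 ± 0.315 in B2B1 (log2 fold changes −1.48 and −3.40, limma adjusted p = 9.06e-05 and 5.13e-07). Fcgrt was also lower in B2B1 than in B1 (−1.92, limma adjusted p = 0.000194), the order seen for Fcer2a and Cd55. Fcamr, a receptor for IgA and IgM, was at 23.7 ± 3.39 TPM in B2, 21.0 ± 2.85 in B1 and 77.3 ± 23.9 in B2B1, higher in B2B1 than in either (1.62 and 1.79, limma adjusted p = 0.000213 and 0.001). Pigr, the polymeric immunoglobulin receptor, was at 0.488 ± 0.172 TPM in B2, 2.60 ± 0.587 in B1 and 4.04 ± 0.490 in B2B1. Fcer1g, the signalling chain of activating Fc receptors, rose from 2.06 ± 0.0816 TPM in B2 to 6.60 ± 1.76 in B1 and 10.5 ± 2.67 in B2B1 (1.29 and 1.88, limma adjusted p = 0.000769 and 5.62e-05). Fcer1g is also a myeloid gene. In B2B1 libraries 1, 2 and 3 it was at 12.4, 7.46 and 11.7 TPM, beside macrophage marker sums of 241.9, 63.8 and 87.5 TPM. In B1 libraries 1, 2 and 3 it was at 5.35, 5.84 and 8.62 TPM, beside sums of 21.2, 46.1 and 43.5 TPM. The part of macrophage RNA was not tested. The 6 untested genes, among them Fcgr1, Fcgr3 and Fcer1a, reached at most 3.12 TPM in any library.

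**Figure D4:**
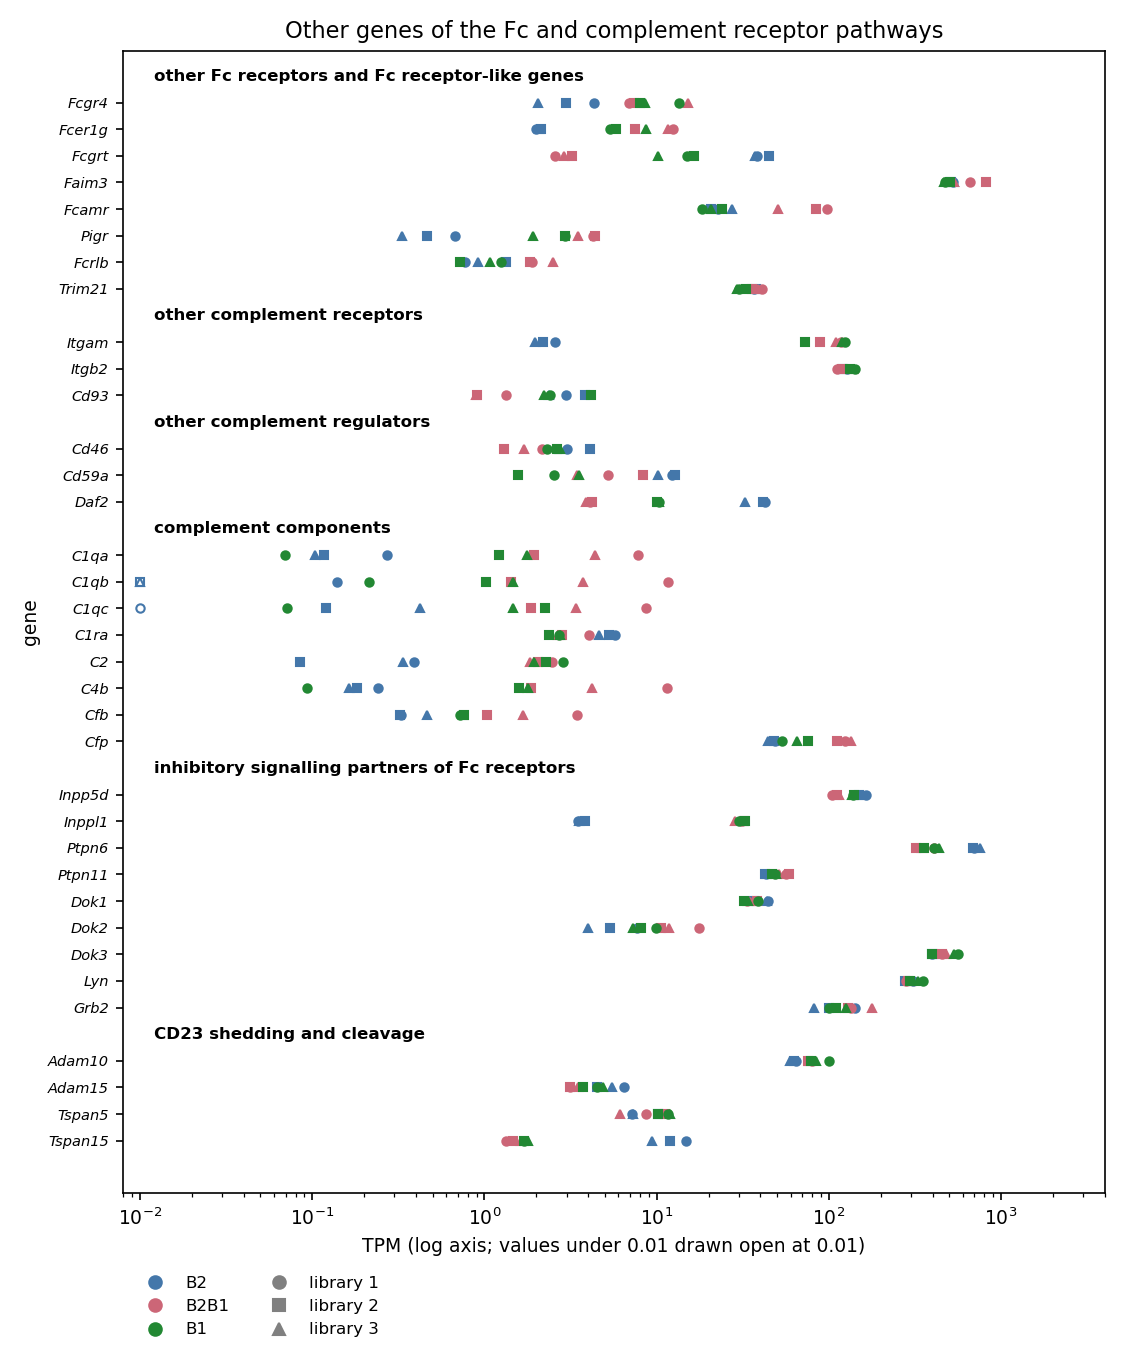
TPM of the other tested genes of the Fc and complement receptor pathways in each library on a log axis, grouped by list, with values under 0.01 drawn open at 0.01. Fcgrt and Daf2 are highest in B2, Itgam and Inppl1 lowest in B2, and C1qa, C1qb, C1qc and C4b peak in B2B1 library 1.

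The other complement receptors held 3 tested genes of 7 found in the table, with 1 higher in B1 against B2, 1 higher and 1 lower in B2B1 against B2 and 1 lower in B2B1 against B1, the same counts as at an unadjusted p under 0.05 and too few to set against the shares over all genes (list medians 0.15, −0.02 and −0.17). Itgam, the alpha chain of complement receptor 3 (CD11b) and a known mark of peritoneal B1 cells, rose from 2.24 ± 0.304 TPM in B2 to 106 ± 28.5 in B1 and 106 ± 14.9 in B2B1 (log2 fold changes 5.01 and 5.03, limma adjusted p = 1.81e-07 and 1.62e-07). It did not pass between the peritoneal groups (0.03, adjusted p = 0.937). Its partner chain Itgb2 was at 124 ± 3.85, 138 ± 4.43 and 123 ± 13.3 TPM in B2, B1 and B2B1 and passed in no comparison. Cd93 was lower in B2B1, at 1.04 ± 0.252 TPM, than in B2 at 3.06 ± 0.727 and B1 at 2.93 ± 1.07 (limma adjusted p = 0.00341 and 0.0191). The anaphylatoxin receptor genes C3ar1 and C5ar1 were under the filter.

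Besides Daf2 and Cd46, the third tested gene among 10 other complement regulators was Cd59a, which blocks the membrane attack complex. It fell from 11.7 ± 1.40 TPM in B2 to 2.55 ± 0.983 in B1 and 5.66 ± 2.45 in B2B1 (log2 fold changes −1.88 and −0.997, limma adjusted p = 0.000525 and 0.0121). This list had 2 genes lower in B1 against B2, 3 lower in B2B1 against B2 and 1 lower in B2B1 against B1, and 0 higher by limma in each (medians −1.82, −0.997 and −0.41). At an unadjusted p under 0.05 the higher counts were 0, 0 and 1. Of all tested genes 42.0% were lower in B2B1 than in B2, and 7 of the 10 regulators were under the filter, so the 3 do not stand for the list.

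Of 22 complement components in the table, 8 were tested. C1qa, C1qb, C1qc, C2, C4b and Cfb, 6 of these 8, averaged under 1 TPM in B2 and passed the filter through the peritoneal groups. Apart from C2, these had their highest mean in B2B1 and did not pass in B1 against B2. No count or median of the list is therefore given. Cfp, which encodes properdin, the stabiliser of the alternative pathway convertase, was at 47.0 ± 2.53 TPM in B2, 64.9 ± 11.1 in B1 and 123 ± 11.6 in B2B1 (log2 fold changes against B2 of 0.44 and 1.37, limma adjusted p = 0.0133 and 1.60e-05). C2 was at 0.27 ± 0.163 TPM in B2, 2.35 ± 0.457 in B1 and 2.11 ± 0.318 in B2B1, and C1ra was lower in both peritoneal groups (−0.78 and −0.59, limma adjusted p = 0.00196 and 0.0068). C1qa reached 7.77 TPM in B2B1 library 1 against 1.94 and 4.39 in libraries 2 and 3, and at most 0.271 TPM in B2. The macrophage marker sums of the B2B1 libraries had the same order, from 241.9 TPM in library 1 to 63.8 in library 2, and the part of macrophage RNA in the C1q values was not tested.

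Inhibitory signalling partners of Fc receptors, all 9 tested, had 2 higher and 2 lower in B1 against B2, 3 higher and 2 lower in B2B1 against B2, and 0 higher and 1 lower by limma in B2B1 against B1, where 2 were higher and 2 lower at an unadjusted p under 0.05 (medians 0.14, 0.19 and −0.04). The shares over all tested genes were 18.0% higher and 33.9% lower, 21.0% and 42.0%, and 6.93% and 12.1%. With 9 genes these counts cannot be set apart from those shares. Inpp5d, which encodes SHIP1, the phosphatase that FcγRIIB recruits, was at 157 ± 7.70 TPM in B2, 137 ± 1.75 in B1 and 110 ± 5.26 in B2B1, lower in B2B1 than in B1 (log2 fold change −0.32, limma adjusted p = 0.00625). Its relative Inppl1 (SHIP2) rose from 3.62 ± 0.198 TPM in B2 to 31.4 ± 1.13 in B1 and 30.6 ± 2.04 in B2B1 (2.81 and 2.77, limma adjusted p = 2.35e-08 and 2.14e-08). Ptpn6 (SHP-1) fell from 713 ± 34.7 TPM to 401 ± 41.1 and 358 ± 42.6 in B1 and B2B1 (limma adjusted p = 0.000146 and 3.45e-05). Ptpn11 (SHP-2) rose slightly, from 43.0 ± 0.386 TPM to 48.3 ± 1.24 and 55.4 ± 3.62 (limma adjusted p = 0.0488 and 0.00089).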

How the data were processed

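PolyA RNA-seq libraries of 9 B cell samples were compared, 3 each of B2, B2B1 and B1. The deposited values are TPM per gene symbol. CASAVA 1.8.2, kallisto and the build mm10 are named in the submitters' processing notes, and how transcripts were summed to genes is not given in the sources used here. Depth is unknown, so no counting error is given. The genes, lists and tests were chosen with earlier results of these data known. Values were analysed as log2(TPM + 1), and fold changes on that scale understate changes of low genes. The 11099 genes with a mean of at least 1 TPM entered one limma fit (limma 3.58.1, R 4.3.3) over the 3 groups with a mean-variance trend, with Benjamini-Hochberg adjustment within each of 3 comparisons and calls at an adjusted p under 0.05. The script was tested on simulated data. Exact permutation of 3 against 3 libraries cannot go below p = 0.1. The text names all 8 members, the 3 nearest genes to each, the nearest tested neighbours within 200 kb, and of each other list up to 4 tested genes with the smallest adjusted p over the 3 comparisons. Alternatives were other pseudocounts, filters, scalings, fits, a replicate block and left-out libraries. One gene and the list built around it are not reported here. None of 36 library pairs held identical values. Gene positions are from GENCODE M21 and promoters from RefSeq, and figures were drawn with matplotlib 3.10.9.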

Additional observations from a re-analysis of the deposited data

How the results depend on the processing

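Of 22 alternatives, every one kept the calls of B1 against B2 and of B2B1 against B2 at 4 and 5 of the 8 genes lower and 1 higher in each. Between B2B1 and B1 the lower count of 5 became 3 with no filter on low values and 3 in a fit of only the 2 groups, and lay between 3 (without B1 library 1) and 5 on leaving out single libraries. The higher count of 0 there became 1, Fcrl5, with library weights and 1 with B1 library 2 and B2B1 library 1 both left out, and lay between 0 and 1 (without B1 library 2) on leaving out single libraries. Signs turned only for differences that passed no test. Cr1l turned to 0.0071 in B1 against B2 and 0.11 in B2B1 against B2 with median-of-ratios scaling, and to 0.018 in the latter with quantile normalization. Fcgr2b in B2B1 against B2 turned to 0.14 and 0.027 with these scalings, 0.019 with library weights, 0.067 with Xist as a covariate, and 0.037 with B1 library 2 and B2B1 library 1 both left out, and lay between −0.30 (without B2B1 library 3) and 0.056 (without B2B1 library 2) on leaving out single libraries. Cr1l in B2B1 against B1 turned to −0.0023 with library weights, and −0.064 with B1 library 2 and B2B1 library 1 both left out, and lay between −0.017 (without B2B1 library 1) and 0.10 (without B1 library 1) on leaving out single libraries, and Fcrla in B1 against B2 to −0.089 without B1 library 1. The cause of these changes was not tested. With the replicate number as a block the counts stayed at 4, 5 and 5 lower, and no call changed (Cr2 in B2B1 against B1, adjusted p = 0.0208 with the block in limma). Same-numbered libraries correlated at −0.058 to 0.12 in their deviations and others at −0.21 to 0.13, and 3 of 9 libraries correlated best with their own number. These values gave no sign that the numbers pair the samples. With 3 libraries per group they cannot exclude a pairing. Unknown depth limits the values of Fcer2a and Cr2 in the peritoneal groups, which lie at a few TPM.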
